A study of Mus musculus with 4 samples.

Results

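The Ms4a genes, a family of membrane proteins that cross the cell membrane 4 times, were followed in stem and progenitor cells of mouse bone marrow that lack the zinc finger cofactor Zfp521. Members were the rows of the count table whose symbol was on a list of 10 Ms4a genes, and all 10 were found among 24421 rows. The 2 groups were LSK cells of Zfp521-/- mice (KO) and LSK cells of Ctrl littermates (WT), with 2 RNA sequencing libraries each. LSK cells are sorted for the lack of mature lineage markers and for surface Kit and Sca-1, a fraction that holds the stem cells and the early multipotent progenitors. The study's title names extrinsic effects of the marrow microenvironment, and the labels do not restrict the deletion to blood cells. They call the material pools of cells and give no age or sex, and they do not say whether a library came from separate animals. The p-values thus measure the spread among these samples alone, and within KO that spread may be technical. The 2 WT libraries differ in sex-linked transcripts, as given below, so their spread is not technical alone.

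Ms4a proteins sit in the membrane of particular blood cell types, where several of them associate with receptors and modulate their signals. Ms4a1 is CD20 of B cells, Ms4a2 is the beta chain of the high-affinity IgE receptor of mast cells and basophils, and Ms4a3 marks granulocyte and monocyte progenitors. Ms4a4b is known from T cells, and the Ms4a6 genes, Ms4a4c and Ms4a7 mostly from monocytes and macrophages, so the family offers a readout for each of several lineages from a single gene cluster.

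Library totals were 22000036 and 17787425 counts in KO and 29863594 and 25813391 counts in WT, and a floor of 3 counts corresponded to 0.108 to 0.152 CPM (the read count scaled to the TMM-adjusted library size). Floors, and the intervals given for ratios of scaled counts and for shares of reads, cover counting error only. The intervals of log2 fold changes come from the edgeR fit and also include the spread between libraries. The targeted gene Zfp521 had 308 and 215 counts in KO libraries, against 1561 and 1429 in WT libraries (log2 fold change -2.19, SE 0.23, edgeR adjusted p = 0.000491). WT replicate 2 stood apart in sex-linked transcripts: Xist had 227405 and 230977 counts in KO and 160613 and 606 counts in WT, and the 47 Y-linked rows summed to 20 and 22 counts in KO and 23 and 5616 counts in WT. The part of this difference in the results was not tested; each tested member's fold change is also given without it. Markers of the sort did not pass the test, with Kit at 699.6 ± 3.41 CPM in KO and 663 ± 64.2 CPM in WT, and Ly6a, which encodes Sca-1, at 52.1 ± 21.0 CPM in KO and 42.3 ± 7.60 CPM in WT (SD, n = 2 each; edgeR adjusted p = 0.766 and 0.527).

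Of the 10 members, 9 had enough reads to be tested, and Ms4a2, Ms4a6c and Ms4a8a rose in KO (quasi-likelihood test of edgeR, Benjamini-Hochberg adjusted p under 0.05 over 14140 genes). Among all genes tested 3.77% were called higher and 3.01% lower, 6.78% in all. No member was called lower, by edgeR or by DESeq2, and none was lower at an unadjusted p under 0.05. In 6 tested members both KO libraries lay above both WT libraries, as they did in 28.8% of all genes tested, and in 0 both lay below, as they did in 27.6% of all genes. In the other 3, Ms4a3, Ms4a6b and Ms4a6d, the groups overlapped. Ms4a4b and Ms4a8a passed the filter on low counts through their KO libraries alone. Ms4a4c had both KO libraries and only 1 WT library over that filter. The place of these 3 genes among the tested genes is therefore not independent of their direction. In bulk RNA fewer cells of a type and less RNA per cell cannot be told apart. The number of members called was 2 without KO replicate 1, 1 without KO replicate 2, 1 without WT replicate 1 and 0 without WT replicate 2. Without WT replicate 2, the library that stood apart, the members that had not passed had log2 fold changes of 0.38 for Ms4a1, 1.05 for Ms4a3, 1.46 for Ms4a4b, 4.53 for Ms4a4c, 0.54 for Ms4a6b and -0.18 for Ms4a6d, and none of these 6 passed.

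**Figure D1:**
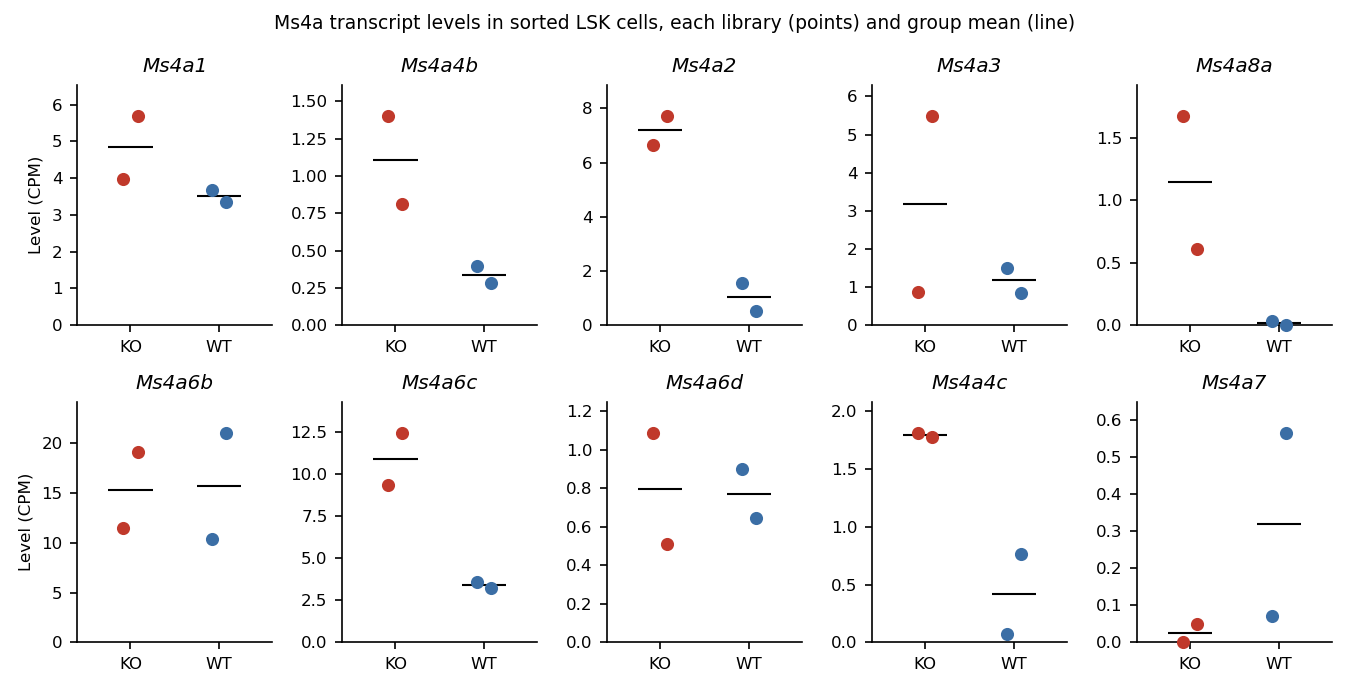
Level of each Ms4a gene in CPM (vertical axis, linear, from 0, with a scale of its own in each panel) in the 2 KO and 2 WT libraries (points) with the group mean (line). The KO points of Ms4a2, Ms4a6c and Ms4a8a sit above the WT points, those of Ms4a6b, Ms4a6d and Ms4a3 overlap with them, and Ms4a7 has its highest point, 0.564 CPM, in WT.

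Ms4a2 had the smallest adjusted p of the members. It encodes the beta chain of the IgE receptor Fc epsilon RI, which carries an ITAM signalling motif and amplifies the signal of the receptor. Ms4a2 (ENSMUSG00000024680.12) lies at chr19:11615523-11623719 of mm10, on the minus strand, with 8 exonic blocks. It had 147 and 152 counts in KO libraries and 43 and 13 counts in WT libraries, or 6.65 and 7.72 CPM in KO and 1.545 and 0.523 CPM in WT. Both KO libraries were thus high and alike, while the WT libraries differed from each other. The mean was 7.19 ± 0.761 CPM in KO and 1.03 ± 0.722 CPM in WT (SD, n = 2 each), a 6.88-fold higher level (log2 fold change 2.78, SE 0.62, 95% interval 1.43 to 4.13, edgeR adjusted p = 0.0241). It passed under 10 of 11 alternatives, and with WT replicate 2 left out its adjusted p was 0.117 (log2 fold change 2.20).

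The promoter window of Ms4a2 is shown because it held a repeated motif of the GATA factors, which regulate genes of the mast cell lineage. The sequence is from RefSeq (GRCm38.p6, the mm10 assembly), chr19:11623670-11623969, minus strand, and capitals mark AGATAA on either strand.
Ms4a2 promoter: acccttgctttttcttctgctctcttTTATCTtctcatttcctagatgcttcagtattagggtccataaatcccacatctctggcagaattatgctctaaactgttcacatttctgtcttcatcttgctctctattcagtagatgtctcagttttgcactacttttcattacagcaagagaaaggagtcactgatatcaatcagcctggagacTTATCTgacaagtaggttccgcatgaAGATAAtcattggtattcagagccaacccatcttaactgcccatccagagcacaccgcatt
The GATA motif AGATAA was found 3 times, at bases -224 to -219, -37 to -32 and -11 to -6 counted from the annotated start site as base 0. At least 1 match was held by 11.2% of 32851 promoter windows of the same length and at least 3 by 0.107%. These shares are for this motif alone, which was picked after several motifs were searched in all member promoters of the table. A match is a description of the letters and not a site of binding. None of the other 7 member promoters in the table held AGATAA, and the tables used here held no promoter for Ms4a1 and Ms4a6d.

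Genes of mast cells and basophils rose with Ms4a2, while its partner in the receptor did not pass. Of 16 tested genes of that list 9 were higher in KO and 0 lower (0 lower also at an unadjusted p under 0.05 and by DESeq2), against 3.77% higher over all genes, with a median log2 fold change of 2.67 beside 0.02 for all genes tested. The list's median was the same with Tph1, which had no read in WT, set at its floor. Tph1, among the 9, and Mrgprb2, which did not pass, came through the filter on low counts by their KO libraries alone. Cma1, also among the 9, had only 1 WT library over that filter. The count is thus not independent of the direction of these genes. Il1rl1, the receptor of interleukin 33, averaged 33.8 ± 5.03 CPM in KO and 2.05 ± 0.863 CPM in WT (log2 fold change 4.05, adjusted p = 0.000132). Cpa3, the mast cell carboxypeptidase, averaged 64.6 ± 26.5 CPM in KO and 9.86 ± 0.122 CPM in WT, and Slc18a2, the vesicle transporter for monoamines, 156 ± 53.9 CPM in KO and 52.0 ± 5.34 CPM in WT. The tryptase gene Tpsab1 (24.1 ± 16.0 CPM in KO, 1.47 ± 0.655 CPM in WT) also passed, with reads that near-identical tryptase copies may share. Between 8 and 12 genes of the list passed with each library left out in turn. Gata2, a transcription factor of stem cells and mast cells, was at 191.6 ± 46.2 CPM in KO and 134.9 ± 3.66 CPM in WT and did not pass (log2 fold change 0.51, adjusted p = 0.108).

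The alpha chain of the receptor, Fcer1a, which binds IgE, had 20 and 2 counts in KO libraries and 1 and 11 counts in WT libraries. These groups overlapped and the log2 fold change was 1.09 with an SE of 1.36 (edgeR adjusted p = 0.662), too wide an error to place Fcer1a beside Ms4a2. With WT replicate 2 left out it was 3.62, and leaving out the other WT library gave 0.19; neither passed. Fcer1g, the gamma chain that other Fc receptors share, had 40.4 and 32.9 CPM in KO and 21.9 and 27.7 CPM in WT (log2 fold change 0.56, SE 0.24, adjusted p = 0.175). Of 20 tested genes of the receptor complex and its signalling, Fcer1a among them, none passed in either direction in edgeR, 4 were higher and 0 lower at an unadjusted p under 0.05, and DESeq2 called 1 higher. With either KO library left out edgeR called 1 higher. The median was 0.16. The 2 smallest adjusted p-values were those of the phospholipase Plcg2 (log2 fold change 0.49, adjusted p = 0.0652) and the exchange factor Vav1 (0.44, adjusted p = 0.111).

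Among the members of the monocyte and macrophage group, Ms4a6c rose and its close relative Ms4a6b did not pass. The 2 genes have coding sequences that are 86.4% identical and lie on the plus strand, Ms4a6c (ENSMUSG00000079419.4) at chr19:11469366-11482192 and Ms4a6b (ENSMUSG00000024677.13) at chr19:11516512-11531256, with the predicted gene Gm8369 between them. Ms4a6c had 207 and 245 counts in KO libraries and 100 and 81 counts in WT libraries, or 9.36 and 12.45 CPM in KO and 3.59 and 3.26 CPM in WT. The KO libraries were both far above the WT libraries, and the replicates of each group lay close together. The mean was 10.9 ± 2.18 CPM in KO and 3.43 ± 0.234 CPM in WT (SD, n = 2 each), a 3.18-fold higher level (log2 fold change 1.67, SE 0.40, 95% interval 0.80 to 2.54, edgeR adjusted p = 0.0316). Leaving out WT replicate 1 ended the call (log2 fold change 1.73, adjusted p = 0.161), as did leaving out WT replicate 2 (1.58, adjusted p = 0.1575). The same held for KO replicate 2 (1.44, adjusted p = 0.0707).

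Ms4a6b, also known from T cells, was the member with the highest mean CPM. It had 255 and 376 counts in KO libraries and 289 and 522 counts in WT libraries, or 11.5 and 19.1 CPM in KO and 10.4 and 21.0 CPM in WT. In each group replicate 2 was the higher library, and the groups overlapped. The means were 15.3 ± 5.36 CPM in KO and 15.7 ± 7.52 CPM in WT, and the 95% interval of the log2 fold change ran from -0.87 to 0.80 around -0.04 (edgeR adjusted p = 0.967), a sign that flipped to 0.05 with upper quartile factors. Within a library, which needs no scaling, the ratio of Ms4a6c to Ms4a6b counts was 0.812 and 0.652 in KO and 0.346 and 0.155 in WT, so both KO libraries lay above both WT libraries. The difference between the 2 fold changes was not tested. Over the 4 libraries the tested genes with the pattern most like that of Ms4a6b, by Euclidean distance between centred log2 CPM values, were Fosl2 (0.109), Nfkbiz (0.128) and Arhgap5 (0.134).

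Reads of Ms4a6c have a second possible source. On the opposite strand the annotation places BE692007, whose exons overlap those of Ms4a6c by 1088 bases. Of the 76-base windows of Ms4a6c transcripts, 47.6% occur in a transcript of BE692007, Prdm11 or Ms4a6b, read on either strand. This share includes the overlap with BE692007, which matches as the reverse complement. The strand setting of the counting is not given in the sources used here, and BE692007 is not a row of the table, so reads of the 2 genes cannot be told apart. For Ms4a6b the share of such windows was 0.589%, and for the other members it was at most 3.66%, in Ms4a4c.

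The promoter windows of Ms4a6c and Ms4a6b are shown because they were the most alike among the member promoters, by identity over aligned bases with gaps left out. The start site used for Ms4a6b, at base 11518559, lies inside the gene span given above. Both are from RefSeq (GRCm38.p6), plus strand, Ms4a6c at chr19:11469118-11469417 and Ms4a6b at chr19:11518309-11518608, and capitals mark the ETS core AGGAAG on either strand, the core bound by PU.1 and its relatives in myeloid cells.
Ms4a6c promoter: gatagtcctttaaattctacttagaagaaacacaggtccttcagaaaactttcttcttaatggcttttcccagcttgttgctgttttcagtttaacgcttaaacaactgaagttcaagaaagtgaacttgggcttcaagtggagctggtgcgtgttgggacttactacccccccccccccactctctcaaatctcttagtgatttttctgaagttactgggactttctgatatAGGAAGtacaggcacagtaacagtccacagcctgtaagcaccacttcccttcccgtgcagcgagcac
Ms4a6b promoter: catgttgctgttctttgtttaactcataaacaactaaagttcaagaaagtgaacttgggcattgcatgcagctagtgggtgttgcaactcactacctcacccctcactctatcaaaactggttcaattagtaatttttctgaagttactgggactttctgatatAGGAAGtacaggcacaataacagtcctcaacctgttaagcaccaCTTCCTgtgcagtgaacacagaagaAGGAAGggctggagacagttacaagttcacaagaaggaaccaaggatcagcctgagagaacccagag
Longest stretch shared by both: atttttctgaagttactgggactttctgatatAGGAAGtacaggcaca
The windows were 85.3% identical over 225 aligned bases, and the shared stretch of 48 bases ran from -49 to -2 in Ms4a6c and from -118 to -71 in Ms4a6b. It holds the AGGAAG that both windows have, which lies at -17 to -12 in Ms4a6c and at -86 to -81 in Ms4a6b. The Ms4a6b window held 2 more, at -42 to -37 on the minus strand and at -17 to -12. At least 1 AGGAAG was found in 35.4% of promoter windows and at least 3 in 1.90%. The longer form GAGGAAGT, which contains it, was in neither window.

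The other members of this group had low counts. Ms4a4c (ENSMUSG00000024675.19, chr19:11404770-11427246, plus strand) had 40 and 35 counts in KO libraries and 2 and 19 counts in WT libraries, or 1.81 and 1.78 CPM in KO and 0.0718 and 0.765 CPM in WT. Both KO libraries were higher and nearly equal, but the spread of the WT libraries left a log2 fold change of 2.1 with an SE of 1.05 (95% interval -0.20 to 4.40, edgeR adjusted p = 0.245). With WT replicate 2 left out it was 4.53 (adjusted p = 0.199), and leaving out the other WT library gave 1.22 (adjusted p = 0.744). Ms4a6d (ENSMUSG00000024679.10, chr19:11586604-11604849, minus strand) had 24 and 10 counts in KO libraries and 25 and 16 counts in WT libraries. Its groups overlapped, and the 95% interval of -1.97 to 2.07 around 0.05 leaves the direction unknown (adjusted p = 0.983).

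Ms4a7 had most of its reads in WT and could not be tested. Ms4a7 (ENSMUSG00000024672.11, chr19:11321039-11336146, minus strand) is known from mature macrophages. It had 0 and 1 counts in KO libraries and 2 and 14 counts in WT libraries, so nearly all of its reads came from WT replicate 2. The ratio of scaled counts, KO over WT, was 0.0788 with an exact 95% counting interval of 0.00188 to 0.507, which holds no spread between replicates.

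Few other monocyte and macrophage genes passed. Of 21 tested genes 2 were higher and 0 lower, against 3.77% higher over all genes, and 8 were higher and 0 lower at an unadjusted p under 0.05. The median was 0.82, and 20 of 21 fold changes were positive. Mpeg1, the pore-forming protein perforin-2 of macrophages, averaged 162 ± 9.18 CPM in KO and 34.0 ± 2.81 CPM in WT (log2 fold change 2.25, adjusted p = 3.7e-05), and Fn1, fibronectin, 80.5 ± 4.50 CPM in KO and 14.5 ± 4.82 CPM in WT (2.47, adjusted p = 0.000342). F13a1 (1.42, adjusted p = 0.0602) and Cybb (0.73, adjusted p = 0.0902) did not pass. The receptor gene Csf1r, which defines the lineage, was at 12.8 ± 5.10 CPM in KO and 7.70 ± 3.09 CPM in WT (0.73, adjusted p = 0.295). With each library left out in turn between 2 and 4 genes of the list passed, 4 of them without KO replicate 1. Markers of mature macrophages stood at very different levels. Marco had 0 and 0 counts in KO and 0 and 4 in WT, and Fcgr1 1 and 1 counts in KO and 3 and 0 in WT. The scavenger receptor gene Cd163, in contrast, had 239 and 294 counts in KO and 321 and 238 in WT, and the mannose receptor gene Mrc1 240 and 178 counts in KO and 106 and 186 in WT; neither passed (log2 fold change 0.29 and 0.82). Mertk, also tested, passed the filter on low counts through its KO libraries alone.

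Ms4a8a, for which no lineage is assigned here, was present at a low level in KO and nearly absent in WT. Ms4a8a (ENSMUSG00000024730.7, chr19:11067471-11081102, minus strand) had 37 and 12 counts in KO libraries and 1 and 0 counts in WT libraries, or 1.67 and 0.610 CPM in KO and 0.0359 and 0 CPM in WT. Both KO libraries were above the floor and both WT libraries below it. The ratio of scaled counts, KO over WT, was 61.8 with an exact 95% counting interval of 10.6 to 2488, so its size is known only within wide limits. The fitted log2 fold change of 5.58 (SE 1.46, edgeR adjusted p = 0.0433) rests on that lone WT read. With no filter on low counts the gene also passed (adjusted p = 0.0261). The log2 fold change was 7.67 without WT replicate 1 (adjusted p = 0.253), 4.78 without WT replicate 2 (adjusted p = 0.278) and 6.13 without KO replicate 2 (adjusted p = 0.0667), so the calls were lost while the fitted values stayed large. With KO replicate 1 left out it had too few reads to be tested.

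Its promoter window is shown as that of the member with the lowest level in WT and a call in KO (RefSeq, GRCm38.p6, chr19:11081054-11081353, minus strand, AGGAAG in capitals).
Ms4a8a promoter: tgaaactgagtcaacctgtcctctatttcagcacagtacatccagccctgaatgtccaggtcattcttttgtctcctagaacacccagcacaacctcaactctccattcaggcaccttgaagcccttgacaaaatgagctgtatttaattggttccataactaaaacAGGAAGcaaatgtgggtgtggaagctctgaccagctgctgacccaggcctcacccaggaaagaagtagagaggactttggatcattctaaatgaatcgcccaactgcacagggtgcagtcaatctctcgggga
The ETS core occurred in it at bases -83 to -78, and no match was found for the motifs of GATA factors, C/EBP (TTGCNNAA), RUNX (TGTGGT), EBF (CCCNNGGGA), IRF or MITF (CATGTG).

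Ms4a3, also called HTm4 and known as a regulator of the cell cycle, was high in a lone KO library. Ms4a3 (ENSMUSG00000024681.11, chr19:11629496-11640851, minus strand) had 19 and 108 counts in KO libraries and 42 and 21 counts in WT libraries, or 0.859 and 5.49 CPM in KO and 1.51 and 0.845 CPM in WT. KO replicate 1 lay within the WT range and KO replicate 2 above it. The log2 fold change was 1.42 with an SE of 0.87 (95% interval -0.48 to 3.32, edgeR adjusted p = 0.338), -0.46 without KO replicate 2 and 2.21 without KO replicate 1 (adjusted p = 0.0539). Its promoter window held the ETS core AGGAAG and the C/EBP motif TTGCNNAA, 1 match each, and the C/EBP motif occurred in 10.8% of all windows.

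Genes of granulocyte and monocyte progenitors were called in both directions. Of 14 tested genes 2 were higher and 1 lower, against 3.77% higher and 3.01% lower over all genes, with a median of 0.98. Ctsg, the granule protease cathepsin G, averaged 39.2 ± 2.15 CPM in KO and 9.14 ± 1.20 CPM in WT (log2 fold change 2.1, adjusted p = 0.00111), and Irf8, a transcription factor of monocyte and dendritic cell fate, 61.5 ± 15.2 CPM in KO and 28.3 ± 4.83 CPM in WT (1.12, adjusted p = 0.0192). Mpo, the myeloperoxidase of neutrophil granules, was lower, at 839 ± 56.1 CPM in KO and 1294 ± 83.0 CPM in WT (-0.63, adjusted p = 0.0207). Prtn3 (1.04, adjusted p = 0.0574) did not pass. Without either WT library 1 gene was higher and 0 lower, without KO replicate 1 the count was 5 higher and 1 lower, and Irf8 and Mpo missed the threshold without either WT library.

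Ms4a1 did not pass, while 11 of 22 tested B lineage genes were lower in KO. CD20, its product, is the surface protein of B cells after the earliest stages. Ms4a1 (ENSMUSG00000024673.9, chr19:11249675-11266241, minus strand) had 88 and 112 counts in KO libraries and 102 and 83 counts in WT libraries, or 3.98 and 5.69 CPM in KO and 3.66 and 3.34 CPM in WT. The KO libraries were slightly above the WT libraries, without overlap. The means were 4.835 ± 1.21 CPM in KO and 3.50 ± 0.228 CPM in WT (SD, n = 2 each), and the change did not pass (log2 fold change 0.46, SE 0.50, 95% interval -0.63 to 1.56, edgeR adjusted p = 0.606).

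Of 22 tested B lineage genes 11 were lower and 0 higher in KO, against 3.01% lower over all genes, with a median of -1.84 and single genes from -3.79 to 1.31. Vpreb2, which did not pass, came through the filter by its WT libraries alone. The difference between Ms4a1 and these genes was not tested. At an unadjusted p under 0.05, 14 were lower and 2 higher. The named genes of that list belong to the early steps: the recombinase genes Rag1 (9.22 ± 1.47 CPM in KO, 101 ± 2.03 CPM in WT, log2 fold change -3.46) and Rag2 (-2.67), the surrogate light chain gene Igll1 (5.03 ± 0.499 CPM in KO, 69.8 ± 20.9 CPM in WT, -3.79) and the adaptor Blnk (-3.10). The summed level of the list was 492 and 444.6 CPM in KO and 986.6 and 1153 CPM in WT. Between 10 and 14 genes were lower with each library left out in turn.

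Ms4a4b, which modulates activation of T cells, was low throughout. Ms4a4b (ENSMUSG00000056290.16, chr19:11443553-11467055, plus strand) had 31 and 16 counts in KO libraries and 11 and 7 counts in WT libraries, or 1.40 and 0.813 CPM in KO and 0.395 and 0.282 CPM in WT. Both KO libraries were higher, but the change did not pass (log2 fold change 1.69, SE 0.96, 95% interval -0.42 to 3.80, edgeR adjusted p = 0.305). Its coding sequence is 91.7% identical to that of Ms4a4c, and 1.14% of its 76-base windows are shared with other transcripts. Of 19 tested T and NK cell genes none passed in edgeR, with 2 higher and 3 lower at an unadjusted p under 0.05, 1 higher and 2 lower in DESeq2, and a median of 0.19. In edgeR 1 was higher without WT replicate 2, and 1 higher and 2 lower without KO replicate 1. Cd3d and Cd2 entered the test through their KO libraries alone, and Gzmb with only 1 WT library over the filter. The smallest adjusted p-values in that list were those of Thy1 (log2 fold change -1.23, adjusted p = 0.0543), Gzmb (3.89, adjusted p = 0.0691), Nkg7 (-0.78, adjusted p = 0.0806) and Cd2 (2.35, adjusted p = 0.174). Their summed level was 171.7 and 150.7 CPM in KO and 197.3 and 187.5 CPM in WT.

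**Figure D2:**
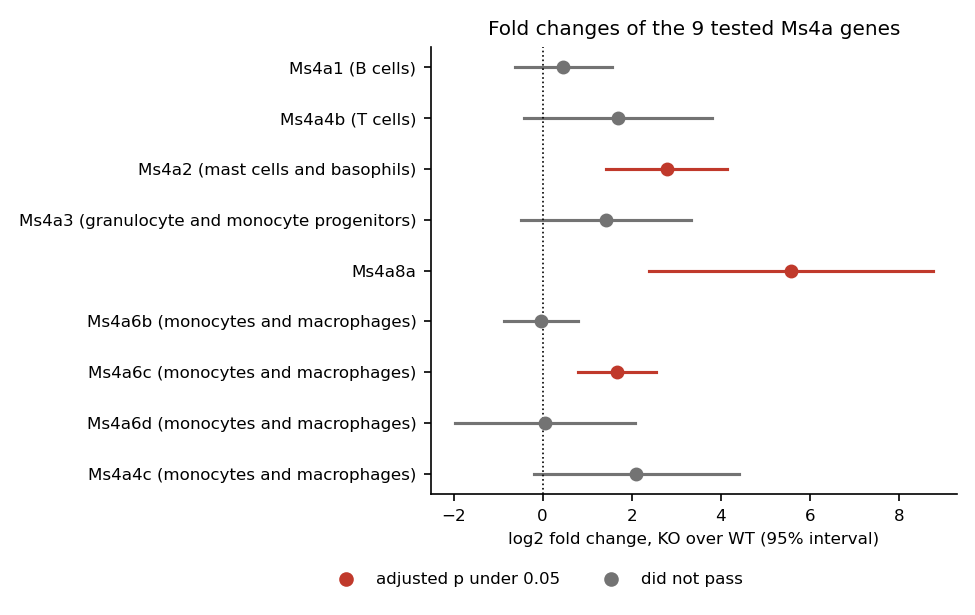
Log2 fold change, KO over WT, of the 9 tested Ms4a genes (points) with 95% intervals (lines), each gene with the cell type it is known from; Ms4a7 had too few reads. The intervals of Ms4a2, Ms4a6c and Ms4a8a, drawn in red, lie above 0, and Ms4a6b sits at -0.04, or 0.05 with upper quartile factors.

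**Figure D3:**
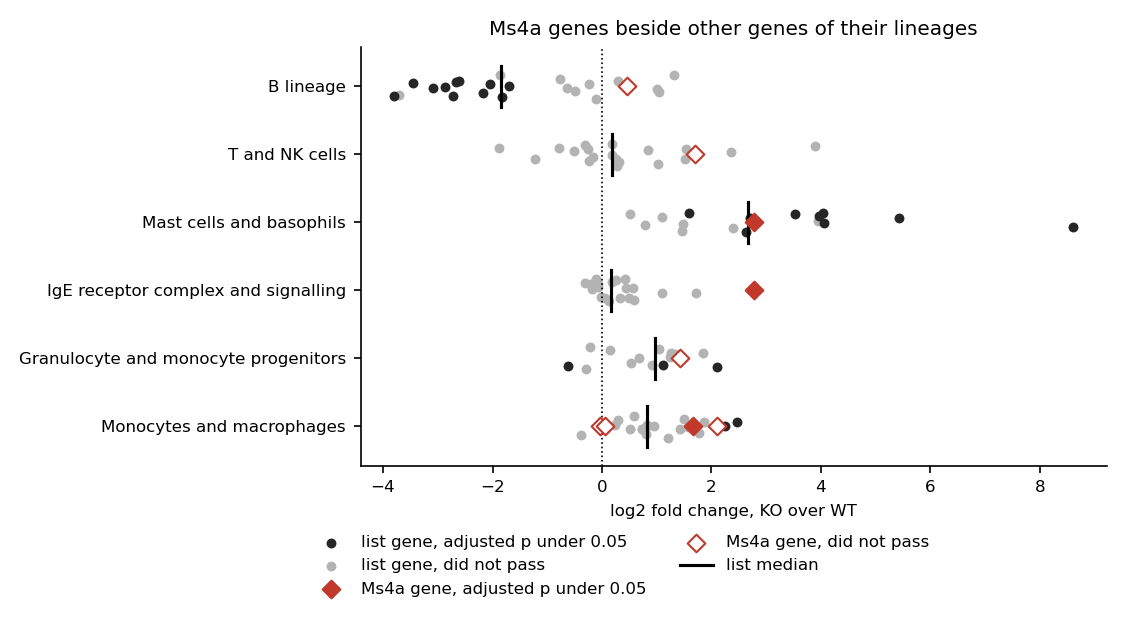
Log2 fold change, KO over WT, of tested genes in 6 lists (dots; dark where the adjusted p was under 0.05), with the list median (bar) and the Ms4a genes of the same lineage (diamonds; filled where the gene passed). Ms4a1 at 0.46 lies within the spread of the B lineage genes, whose median is -1.84, Ms4a2 at 2.78 beside the mast cell median of 2.67, and the 4 macrophage members spread from about 0 to 2.1.

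Genes of several other blood lineages were also higher in KO, where 3.77% of all genes were called higher and 3.01% lower. For neutrophils 8 of 12 tested genes were higher and 0 lower, with summed levels of 1225 and 941 CPM in KO and 455 and 643 CPM in WT; the count was 1 with WT replicate 1 left out, 5 with WT replicate 2, 4 with KO replicate 1 and 11 with KO replicate 2 left out. For dendritic cells 8 of 12 were higher and 0 lower, with 1066 and 879 CPM in KO and 145 and 147 CPM in WT, and H2-Aa, a chain of the class II antigen-presenting molecule, had the smallest adjusted p (227 ± 0.752 CPM in KO, 26.8 ± 3.27 CPM in WT). Batf3, among the 8, had no read in WT and was tested through its KO libraries alone, and 7 to 9 dendritic genes were higher with each library left out in turn. The summed mast cell and basophil list was at 631 and 518 CPM in KO and 209.8 and 222 CPM in WT, and the monocyte and macrophage list at 913 and 846.5 CPM in KO and 524 and 576 CPM in WT. For erythroblasts 2 of 6 tested genes were higher, at 298 and 285 CPM in KO and 41.7 and 134 CPM in WT. Hba-a1 and Hbb-bt were at 0 in all libraries. For megakaryocytes and platelets 2 of 6 fold changes were negative, and 0 genes were called lower. There 2 of 6 were called higher, at 80.9 and 61.0 CPM in KO and 33.9 and 35.95 CPM in WT, with Gp6 at 0. With WT replicate 1, WT replicate 2 or KO replicate 2 left out the count was 1, 4 and 5 for erythroblasts and 1 each time for megakaryocytes and platelets. Of 12 tested stem and progenitor genes only Cd34 passed, lower in KO (325 ± 61.9 CPM in KO, 497 ± 2.68 CPM in WT, adjusted p = 0.0408), a call lost with upper quartile factors (adjusted p = 0.0648) and without either WT library or KO replicate 2. The part of cells of these lineages in the Ms4a results was not tested.

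Per kilobase of exon, the levels of the members stood in a different order in the 2 groups. In KO the order was Ms4a6c (5.32 CPM per kb), Ms4a6b (3.415), Ms4a2 (2.55), Ms4a3 (1.68), Ms4a4c (1.02), Ms4a1 (0.782), Ms4a8a (0.636), Ms4a6d (0.459), Ms4a4b (0.126) and Ms4a7 (0.00571). The libraries of neighbours in this order were apart for Ms4a6c and Ms4a6b, Ms4a4c and Ms4a1, Ms4a6d and Ms4a4b, and Ms4a4b and Ms4a7, and overlapped for the others. In WT it was Ms4a6b (3.50 CPM per kb), Ms4a6c (1.67), Ms4a3 (0.625), Ms4a1 (0.566), Ms4a6d (0.444), Ms4a2 (0.368), Ms4a4c (0.239), Ms4a7 (0.0714), Ms4a4b (0.0386) and Ms4a8a (0.0100). Here neighbours were apart for Ms4a6b and Ms4a6c, Ms4a6c and Ms4a3, Ms4a1 and Ms4a6d, and Ms4a4b and Ms4a8a.

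As a share of all Ms4a reads, Ms4a6b took less in KO than in WT. The 18 family rows of the table summed to 859 and 1079 counts in KO and 627 and 776 counts in WT, or 38.8 and 54.8 CPM in KO and 22.5 and 31.2 CPM in WT. Ms4a6b held 29.7% (Wilson 95% interval 26.7 to 32.8) and 34.85% (32.1 to 37.7) of them in KO and 46.1% (42.2 to 50.0) and 67.3% (63.9 to 70.5) in WT. Ms4a6c held 24.1% and 22.7% in KO and 15.95% and 10.4% in WT, and Ms4a2 17.1% and 14.1% in KO and 6.86% and 1.675% in WT. For all 3 genes the KO and WT shares did not overlap, and the Wilson intervals of the 2 WT libraries were apart as well; the shares were not tested. The ratio of Ms4a2 to Ms4a1 counts, which sets mast cell against B cell member, was 1.67 and 1.36 in KO and 0.422 and 0.157 in WT, and that of Ms4a6c to Ms4a1 was 2.35 and 2.19 in KO and 0.980 and 0.976 in WT.

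**Figure D4:**
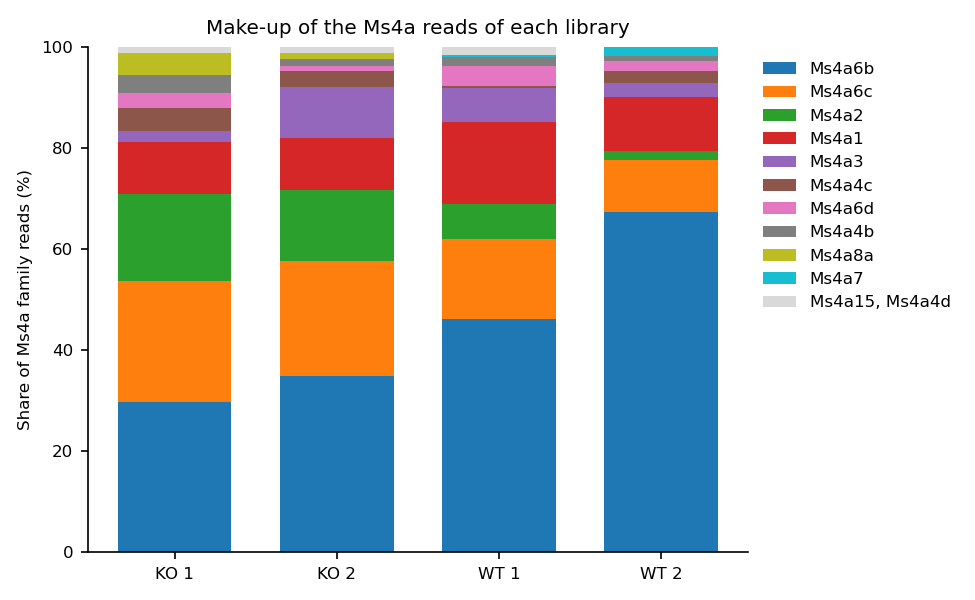
Share of each Ms4a gene in the family's reads of a library (stacked bars, percent, adding up to 100) for KO 1, KO 2, WT 1 and WT 2. Ms4a6b fills 29.7% and 34.85% of the KO bars and 46.1% and 67.3% of the WT bars, and the Ms4a2 band is wider in KO.

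Relatives outside the member list added few reads. Ms4a15 had 7 and 6 counts in KO and 2 and 0 counts in WT (ratio of scaled counts 8.19, exact 95% counting interval 1.86 to 74.8), and Ms4a4d 4 and 6 counts in KO and 8 and 0 counts in WT; neither could be tested. Ms4a5, Ms4a10, Ms4a13, Ms4a18, Ms4a19 and Ms4a20 were at 0 in all libraries, and Ms4a4a, Ms4a12 and Ms4a14 were not analysed here. The related Tmem176a and Tmem176b, which also cross the membrane 4 times, had higher levels per kilobase, 22.9 and 69.2 CPM per kb in KO and 20.0 and 84.4 CPM per kb in WT, and did not pass. Tmem176a was at 87.1 ± 5.85 CPM in KO and 76.2 ± 7.18 CPM in WT (log2 fold change 0.19, adjusted p = 0.521), and Tmem176b at 164 ± 4.11 CPM in KO and 200.1 ± 11.7 CPM in WT (-0.29, adjusted p = 0.256).

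No gene around the family passed the test. The family rows span chr19:10962293-11640851, and within 500000 bases on either side the table holds 46 other genes, of which 22 were tested. In edgeR 0 were higher and 0 lower, with 2 higher and 3 lower at an unadjusted p under 0.05, and their median was -0.15. The neighbours with the highest levels were Ddb1 of DNA repair (log2 fold change -0.17), the mRNA decay factor Patl1 (-0.12) and the splicing factor Prpf19 (-0.45), all at adjusted p-values of 0.141 or more, and the 3′ end processing factor Cpsf7 (0.06, adjusted p = 0.862). Gm8369, a predicted gene between Ms4a6c and Ms4a6b that was picked after its values were seen, had 27 and 23 counts in KO and 3 and 0 counts in WT (ratio of scaled counts 21.0, exact 95% counting interval 6.79 to 105.3; edgeR adjusted p = 0.0702). Gm8369 passed the filter on low counts through its KO libraries alone. Whether members and neighbours differ was not tested.

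**Figure D5:**
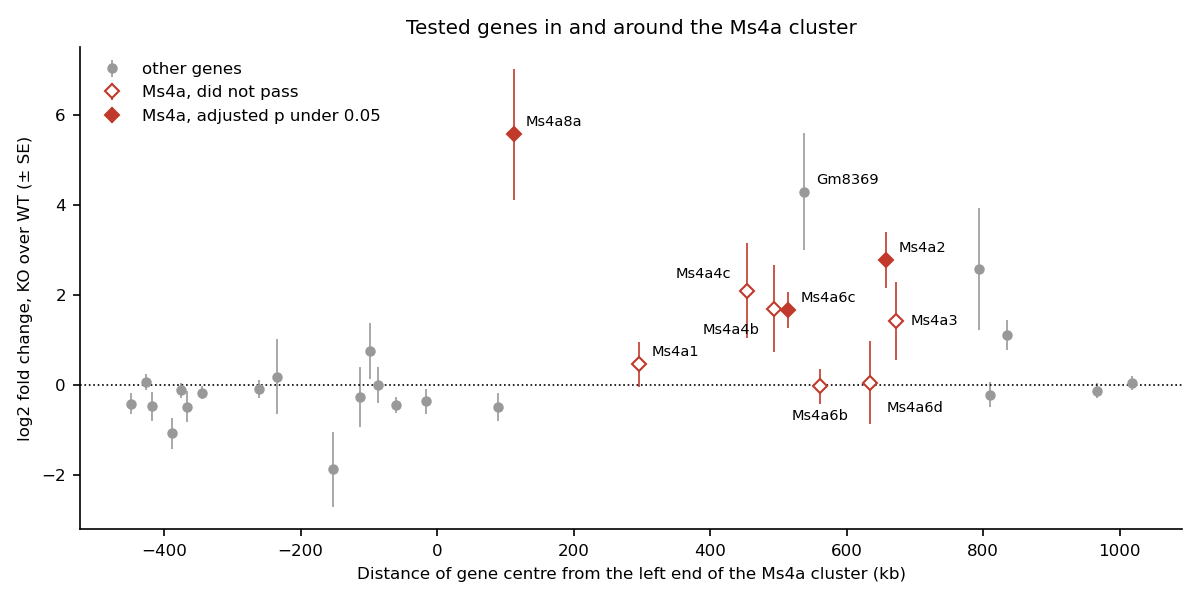
Log2 fold change, KO over WT (± SE), of the tested genes in and around the Ms4a cluster, by distance in kb from the left end of the cluster to the gene's centre. Ms4a8a, Ms4a6c and Ms4a2 (filled diamonds) stand above 0 at separate places in the cluster, and most genes outside the family (grey) lie near or below 0.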

How the data were processed

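RNA sequencing libraries from 2 KO and 2 WT samples of sorted LSK cells were made from 20 ng of total RNA and read for 76 cycles, per the labels' protocols. The authors deposited raw read counts per gene symbol. Per the submitters' processing notes the build was mm10 and the tools named are HTSeq 0.8.0, Picard 2.9.4, SAMtools 1.5 and TopHat2 2.1.1. For the annotation and the strand setting the sources used here give nothing. The raw counts went into edgeR 4.0.16 under R 4.3.3 without change (scaling by TMM, filterByExpr with minimum count 10 and minimum total 15, quasi-likelihood test, no block, Benjamini-Hochberg threshold 0.05), which kept 14140 genes; 6762 had no read. The biological coefficient of variation was 0.266. The fit was tested on simulated data.

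Positions and exon lengths came from GENCODE vM21 (mm10), where 23384 symbols matched directly and 675 by synonym; promoter windows came from RefSeq (GRCm38.p6), with 8 of 10 members matched. All members, every other Ms4a row, Tmem176a, Tmem176b, Fcer1a, Fcer1g, the 4 genes of smallest p in a list, the 4 neighbours of highest CPM and the 3 genes nearest in pattern to the member of highest CPM were named, except 1 list gene that is not reported here; others were chosen after their values were seen. Csf1r, Gata2, Tph1, Mrgprb2, Cma1, Mertk, Mrc1, Cd163, Batf3, Vpreb2, Cd3d, Kit, Ly6a, Marco, Fcgr1 and Gm8369 are such genes. The members and lists were chosen with earlier results of these data known. Ighm and Ly6g of the lists were not analysed here. Alternatives were DESeq2 1.42.0, other scaling factors, other filters, library sizes without Rn45s, a replicate block and leaving out each library.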

Additional observations from a re-analysis of the deposited data

How the results depend on the processing

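All results hold 2 libraries a group, and they depend on which libraries enter. Over all genes 533 were higher and 425 lower in KO; the counts were 1056 and 987 with no filter on low counts, 1312 and 1314 with the replicate block and 858 and 816 with DESeq2, and with each library left out they ranged from 160 to 997 higher and from 95 to 1161 lower. Of the calls 55.6% were higher, against 69.7% with upper quartile factors, which put the median of all genes at 0.10, and 46.2% without KO replicate 1. Members called higher numbered 3 in the fit as reported, 0 to 2 with a library left out, 2 with the stricter filter, which left Ms4a8a untested, and 3 under each of the other alternatives; no member was called lower under any of them. Ms4a2 ranged from 2.20 to 3.76 over its alternatives (adjusted p from 8.8e-05 to 0.117) and Ms4a6c from 1.44 to 1.85 (adjusted p from 0.00221 to 0.161).

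Fold changes that reversed were those of members that did not pass. With each library left out Ms4a3 ranged from -0.46 to 2.21, Ms4a6b from -0.46 to 0.54 and Ms4a6d from -0.61 to 0.48. Ms4a6b was at 0.046 with upper quartile factors and 0.0051 with the replicate block, and Ms4a6d at -0.018 with the block. The causes were not tested. Libraries with the same replicate number shared little, with a correlation of 0.076 between their deviations over 14140 genes, so the numbers were not taken to pair them; the block left the 3 member calls in place. Depth limits Ms4a4b, Ms4a4c, Ms4a6d, Ms4a7 and Ms4a8a, each under 50 counts in every library.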

Other observations

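Within the B lineage list 3 genes of more mature B cells, picked after their values were seen, had positive fold changes, as Ms4a1 did. Fcer2a, the low-affinity IgE receptor CD23, averaged 6.38 ± 0.390 CPM in KO and 3.09 ± 0.154 CPM in WT (SD, n = 2 each; log2 fold change 1.05, edgeR adjusted p = 0.190). Cr2, the complement receptor CD21, averaged 16.6 ± 10.5 CPM in KO and 6.66 ± 2.66 CPM in WT (1.31, adjusted p = 0.106), and Cd22, an inhibitory receptor, 4.73 ± 2.52 CPM in KO and 2.36 ± 1.10 CPM in WT (1.01, adjusted p = 0.338). None of the 3 passed, and the groups of Cd22 overlapped. Ralgps2 of that list was positive as well and did not pass (log2 fold change 0.29, edgeR adjusted p = 0.251). The remaining genes that did not pass had negative log2 fold changes: Vpreb2 (-3.71), Fcrla (-1.86), Cd79b (-0.77), Spib (-0.64), Cd72 (-0.49), Bank1 (-0.24) and Blk (-0.10). A split of the list by stage was not tested.

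Among T cell receptor complex genes, also picked after their values were seen, Cd3e had 22 and 6 counts in KO and 2 and 4 counts in WT. Cd3g had 4 and 5 counts in KO and 0 and 1 counts in WT, and neither had enough reads to be tested. Cd247 had 80 and 109 counts in KO and 72 and 126 counts in WT. Its groups overlapped (log2 fold change 0.26, edgeR adjusted p = 0.81). Of the 19 tested T and NK cell genes 11 had positive and 8 negative fold changes.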
